A study of Mus musculus with 4 samples.

Results

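The insulin-like growth factor (IGF) genes of mouse skin were examined for their response to loss of Bmal1. A set of 10 genes had been listed by name: the ligands Igf1 and Igf2, the receptor Igf1r, the binding proteins Igfbp2 to Igfbp7 and the mRNA-binding protein Igf2bp2. A gene was measured where a probe set of the array was paired with its symbol and no other, which held for 9 of the 10, each with 1 probe set, out of 19938 genes measured in all. Igf2bp2 was not analysed here. The list was chosen by the higher Igf2 signal of these knockout arrays over the heterozygous ones, already known when it was drawn up, so the knockout and heterozygous values of its members are given as a description, with no test.

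Whole back skin was taken from 4 C57Bl6 mice at postnatal day 22, in telogen, when hair follicles rest, at ZT22, that is 22 h after lights on. Heterozygous mice (het, n = 2) carried 1 mutant and 1 wild-type Bmal1 allele, and knockout mice (KO, n = 2) lacked both copies in the germline. Every mouse therefore carried at least 1 mutant allele, and no wild-type mouse was compared. Each array held total RNA of whole skin from 1 mouse, in which fewer cells of a type and less RNA per cell cannot be told apart. With only 4 arrays and no read depth to go by, the number of mice sets the precision of each value.

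IGF-I and IGF-II are secreted growth factors that act through the receptor tyrosine kinase encoded by Igf1r. Most of the IGF outside cells is held by binding proteins, which extend its lifetime and limit its access to the receptor, and proteases that cleave the binding proteins release it. In skin, IGF-I from dermal cells supports keratinocytes and the growing hair follicle, while Igf2 is an imprinted growth factor gene that is highly expressed before birth and declines afterwards in rodents. BMAL1 with CLOCK binds E-box elements, of which CACGTG is the canonical form.

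The promoters of 3 members are shown because Igf2 and Igfbp5 had the largest differences between genotypes and Igfbp2 was the 1 member with a canonical E-box near its start. Each line gives the 250 bases before a RefSeq transcript start, 5' to 3' on the strand of the gene, from the GRCm38.p6 build, in lower case with CACGTG in capitals. The Igf2 window is that of the start nearest the 3' end of the gene, 1 of 4 listed (chr7:142657497-142657746, minus strand). The Igfbp5 window is chr1:72874866-72875115 on the minus strand, and the Igfbp2 window is chr1:72824230-72824479 on the plus strand.
Igf2: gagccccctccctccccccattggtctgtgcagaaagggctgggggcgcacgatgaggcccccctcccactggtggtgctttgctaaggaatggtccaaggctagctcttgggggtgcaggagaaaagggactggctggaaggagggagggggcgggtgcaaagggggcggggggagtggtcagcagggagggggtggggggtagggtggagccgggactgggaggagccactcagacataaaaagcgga
Igfbp5: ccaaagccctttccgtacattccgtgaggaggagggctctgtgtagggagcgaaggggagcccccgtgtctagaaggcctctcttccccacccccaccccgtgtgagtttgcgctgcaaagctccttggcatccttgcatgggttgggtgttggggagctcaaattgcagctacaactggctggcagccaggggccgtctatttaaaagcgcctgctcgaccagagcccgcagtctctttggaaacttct
Igfbp2: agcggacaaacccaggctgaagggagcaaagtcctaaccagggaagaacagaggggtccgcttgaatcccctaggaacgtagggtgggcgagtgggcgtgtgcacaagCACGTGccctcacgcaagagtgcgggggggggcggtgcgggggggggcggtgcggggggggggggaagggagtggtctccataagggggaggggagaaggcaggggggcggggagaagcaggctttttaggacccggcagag
The search covered 300 bases around each start, 250 before and 50 after, and CACGTG reads the same on both strands. It was found in 1 of the 14 windows listed for the 10 genes, where its first base lay 142 bases before the Igfbp2 start, and in 7.15% of all 32851 windows of that length. No CACGTG was found in the 4 Igf2 windows or the Igfbp5 window, which says only that these letters are not in these bases.

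Bmal1 itself (symbol Arntl) was lower in both knockout arrays, at 58.8% of the heterozygous mean. Over all genes, 323 of 16341 tested probe sets passed the limma test at an adjusted p under 0.05, or 1.98%, and 17.9% had an unadjusted p under 0.05. Of the 323, 241 were higher in knockout (1.47% of those tested) and 82 lower (0.502%), a share of 74.6% higher, which was 85.4% after median centring and 84.4% with the values as deposited. When probe sets paired with several genes were also tested, limma called 0 of 17557, or 0%, with 15.5% at an unadjusted p under 0.05. Without knockout array 1 it called 77, or 0.471%. Both knockout arrays lay above the heterozygous range for 27.8% of tested probe sets and below it for 22.1%, together 49.8%.

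The ligands differed from each other. Igf2 read 8.48 and 8.64 on the log2 scale in the heterozygous mice and 10.29 and 9.61 in the knockout mice. Both knockout arrays were well above both heterozygous arrays, and knockout array 1 was the highest. The knockout mean was 9.95 ± 0.48 (SD, n = 2) and the heterozygous mean 8.56 ± 0.12 (SD, n = 2), a difference of 1.38 (limma SE 0.19), or 2.61-fold. A larger positive difference was seen in 10 of the 16341 tested probe sets. The list was chosen by this Igf2 difference, so its rank is a description and no support. Without knockout array 1 the Igf2 difference was 1.04, and without knockout array 2 it was 1.72.

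Igf1, which encodes the other ligand, read 10.17 and 9.90 in the heterozygous mice and 9.85 and 10.26 in the knockout mice. The knockout arrays held both the lowest and the highest Igf1 value, so the groups overlapped completely. With the values as deposited heterozygous array 2 was the lowest, and the groups still overlapped. Its difference was 0.02 (SE 0.15), and it ran from -0.18 to 0.23 when single arrays were left out. Igf1r, the receptor through which both ligands signal, read 9.60 and 9.81 in the heterozygous mice and 9.86 and 9.52 in the knockout mice. These ranges overlapped too, with a difference of -0.01 (SE 0.14).

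**Figure D1:**
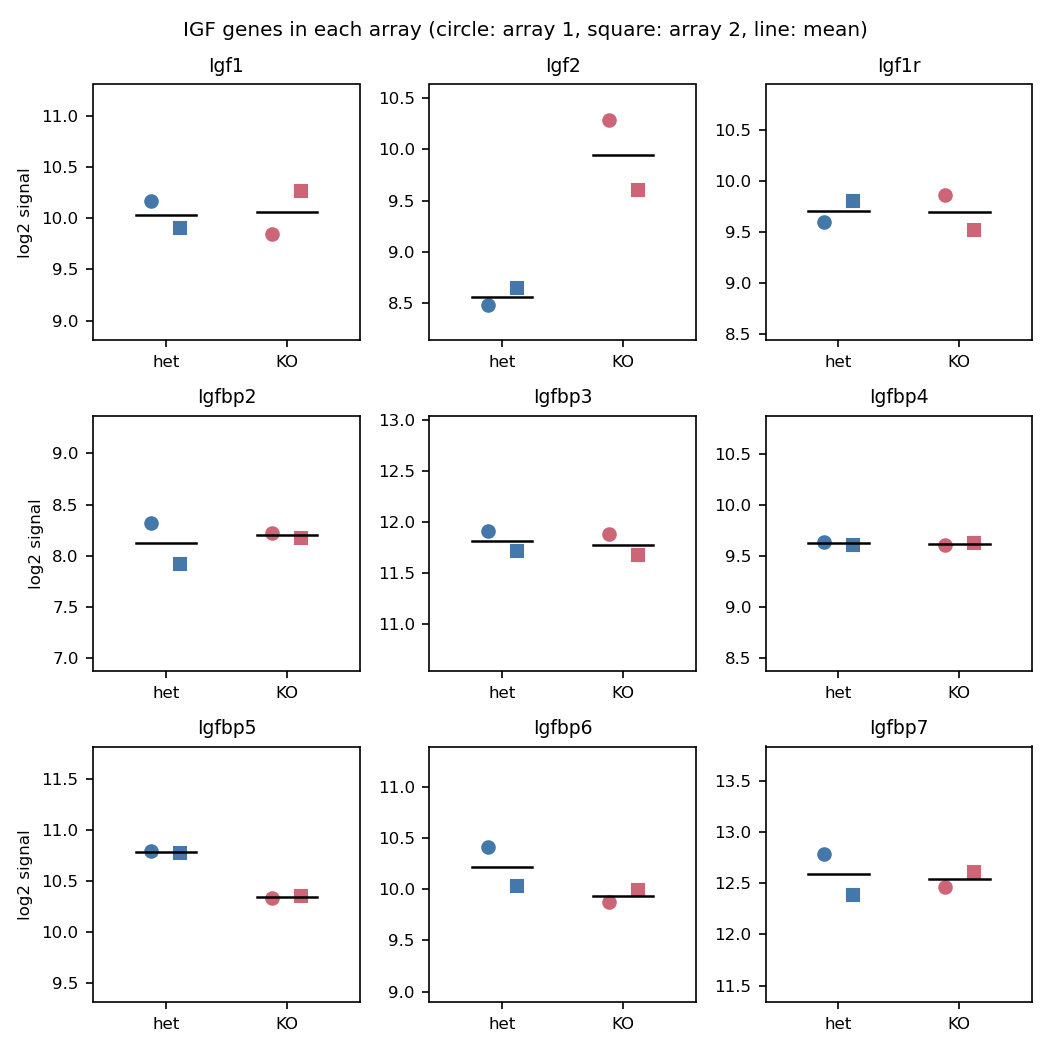
Log2 signal of the 9 measured IGF genes in each array, heterozygous (het, blue) and knockout (KO, red), with the genotype mean as a line; every panel spans 2.5 log2 units. Igf2 is higher in both knockout arrays (10.29 and 9.61 against 8.48 and 8.64), Igfbp5 and Igfbp6 are lower in both, and the other 6 genes overlap between genotypes. These are quantile-normalized values. With the values as deposited Igfbp6 overlaps and Igfbp4 is higher in both knockout arrays.

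Among the 6 binding proteins, 2 were lower in both knockout arrays, none was higher in both, and 4 overlapped, where 22.1% of all tested probe sets were lower in both and 27.8% higher in both. A count of 2 in 6 is therefore near the background. These counts were taken after quantile normalization. With the values as deposited, Igfbp6 overlapped and Igfbp4 was higher in both knockout arrays (9.68 and 9.65 against 9.58 and 9.55). Igfbp5, which encodes a binding protein that also attaches to extracellular matrix, read 10.79 and 10.77 in the heterozygous mice and 10.34 and 10.35 in the knockout mice. The arrays of each genotype lay within 0.02 of each other, with SDs of 0.013 and 0.012. The difference was -0.44 (SE 0.11), which puts the knockout signal at 73.8% of the heterozygous one. When single arrays were left out it ran from -0.45 to -0.43.

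Igfbp6, whose protein prefers IGF-II to IGF-I, read 10.41 and 10.03 in the heterozygous mice and 9.88 and 9.99 in the knockout mice. The genotypes separated by a narrow margin, since heterozygous array 2 was close to both knockout arrays, and with the values as deposited they overlapped. The difference was -0.29 (SE 0.14), and leaving out heterozygous array 1 or 2 gave -0.10 or -0.48. The size for Igfbp6 thus depended on which heterozygous array was kept.

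The remaining binding proteins overlapped between genotypes after quantile normalization. Igfbp3, which encodes the main IGF carrier of serum, read 11.91 and 11.72 in the heterozygous mice and 11.88 and 11.67 in the knockout mice, with a difference of -0.04 (SE 0.13). Igfbp4, which encodes a binding protein that restrains IGF action, read 9.64 and 9.61 against 9.61 and 9.62, with a difference of -0.01 (SE 0.11). These 4 arrays were nearly level for Igfbp4, the least variable member, after quantile normalization. With the values as deposited both knockout arrays lay above both heterozygous ones for Igfbp4, with a difference of 0.10.

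Igfbp2, the member with the E-box shown above, read 8.32 and 7.92 in the heterozygous mice and 8.22 and 8.17 in the knockout mice. Both knockout values lay between the heterozygous ones, and the difference was 0.08 (SE 0.14). Igfbp7, which encodes a related protein that binds IGF weakly, read 12.79 and 12.39 against 12.47 and 12.61, with the knockout values again between the heterozygous ones and a difference of -0.04 (SE 0.15). In every binding protein, Igfbp5 included, heterozygous array 1 was the highest of the 4 arrays after quantile normalization, by little in Igfbp3, Igfbp4 and Igfbp5. With the values as deposited, knockout array 1 was the highest for Igfbp3 and Igfbp4 and level with heterozygous array 1 for Igfbp2. In Igfbp2 and Igfbp7 heterozygous array 2 was the lowest.

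Taking the members as a list, 3 were higher and 6 lower in knockout, with a median difference of -0.01 beside 0.02 for all tested probe sets. All 9 passed the filter on low values. Of the 6 binding proteins 5 were lower by any amount, but after median centring and with the values as deposited 3 were lower and 3 higher, since Igfbp3 turned to 0.05 and 0.01 and Igfbp4 to 0.13 and 0.10. Igf1r turned as well, to 0.12 and 0.09. Igf2 (1.35 to 1.51), Igfbp5 (-0.43 to -0.30) and Igfbp6 (-0.28 to -0.15) kept the sign of their mean difference in the 3 other scalings. For Igfbp6 the separation of the arrays was nevertheless lost with the values as deposited. It then read 10.38 and 9.96 in the heterozygous and 9.93 and 10.04 in the knockout mice. The knockout arrays stood clear of the heterozygous range in 3 of 9 members, where 49.8% of all tested probe sets did so. The list was drawn up from this comparison, so nothing is read from this count.

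**Figure D2:**
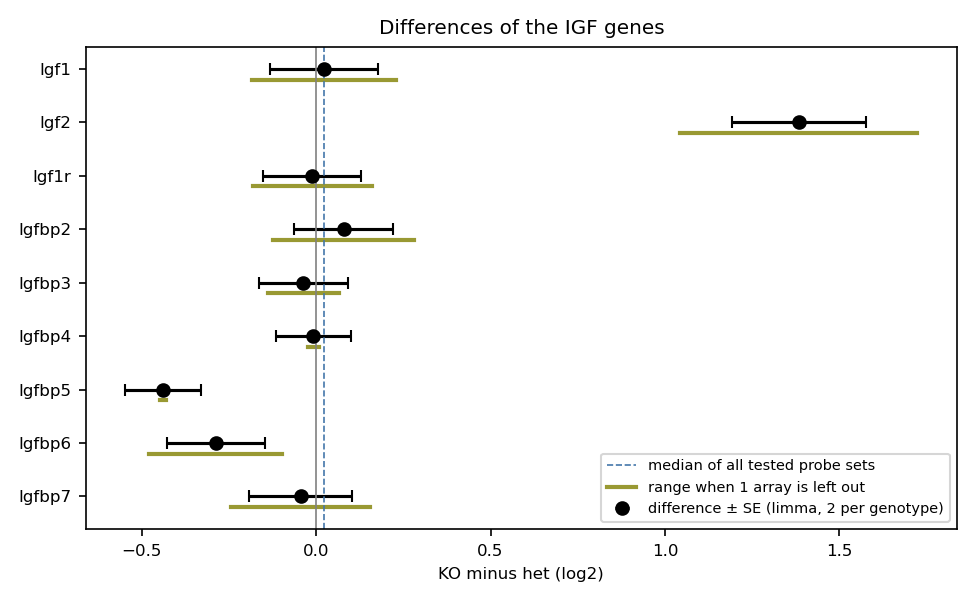
Knockout minus heterozygous log2 difference of each IGF gene (point, with the limma SE, n = 2 per genotype), the range when 1 array is left out (olive line) and the median of all tested probe sets (dashed line, 0.02). Igf2 lies at 1.38 and Igfbp5 at -0.44 with ranges on 1 side of 0, Igfbp6 at -0.29 with a range from -0.48 to -0.10, and the ranges of the other 6 genes span 0.

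Other genes of the IGF axis were taken from 4 lists of 60 genes, 55 of which had a probe set and 49 of which passed the filter on low values. With each gene represented by its probe set of highest mean, 0 of the 49 passed in either direction by limma's adjusted p. An unadjusted p under 0.05 was seen in 3 of the 49, a lower share than the 17.9% of all tested probe sets. The median difference was -0.0017. Counted by probe set, 2 of 55 passed, both of Pappa2 and both higher in knockout, beside 1.98% of all tested probe sets. The 3 genes at an unadjusted p under 0.05 were Pappa2, Grb10 and Socs3.

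Pappa2 encodes a metalloprotease that cleaves IGFBP-5 and IGFBP-3. Its 3 probe sets read higher in both knockout arrays. The first read 7.55 and 7.54 in the heterozygous mice and 8.47 and 8.15 in the knockout mice, a difference of 0.76 (SE 0.13, limma adjusted p = 0.025). The second read 7.23 and 6.99 against 8.47 and 7.77, a difference of 1.01 (SE 0.21, limma adjusted p = 0.042). The third, with the highest mean, read 7.77 and 7.58 against 8.56 and 8.14 and did not pass, with a difference of 0.68 (SE 0.15, limma adjusted p = 0.057). With all arrays kept, its limma adjusted p was under 0.05 after median centring (0.013), as deposited (0.048) and with a robust prior (0.040). The same held with a filter at the 50th percentile (0.035), 1 probe set per gene (0.046) and a replicate block (0.0040). It stayed above 0.05 with no filter (0.11), no variance trend (0.078), an offset of 16 (0.057) and probe sets of several genes also tested (0.18). Knockout array 1 was the highest array in all 3, as it was for Igf2. Both calls ended without knockout array 1 (limma adjusted p = 0.19 and 0.24 for the first and second) and with probe sets of several genes also tested (0.13 and 0.18) and with no filter on low values (0.055 and 0.090). The second call also ended without heterozygous array 2 (limma adjusted p = 0.088), without a variance trend (0.060) and with a robust prior (0.066). In all, the first passed in 10 of 13 other settings (adjusted p from 0.0023 to 0.19), and the second in 6 of 12 (from 0.00063 to 0.24).

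The other proteases and inhibitors did not pass. Pappa, which encodes the related protease of IGFBP-4, differed by -0.08 (SE 0.11) and Htra1, a secreted serine protease, by -0.12 (SE 0.13). Stc1 and Stc2 encode stanniocalcins, which inhibit these metalloproteases, and differed by -0.13 (SE 0.21) and 0.26 (SE 0.13). Both knockout arrays lay above the heterozygous range for Stc2 (8.26 and 7.95 against 7.87 and 7.82), but they were close to it in knockout array 2.

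**Figure D3:**
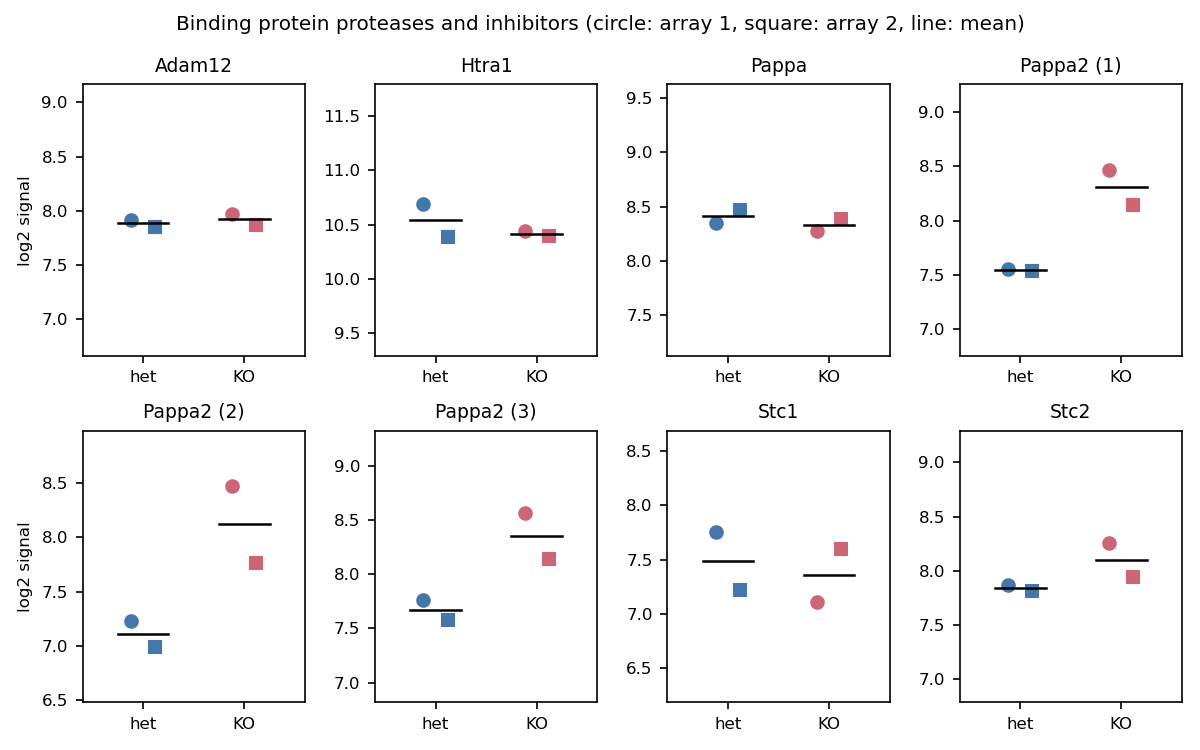
Log2 signal in each array of the 8 tested probe sets for binding protein proteases and their inhibitors, heterozygous (het, blue) and knockout (KO, red), with the genotype mean as a line; Pappa2 has 3 probe sets, numbered in order of their identifiers, and every panel spans 2.5 log2 units. The knockout arrays lie above both heterozygous arrays in all 3 Pappa2 panels and in Stc2, and overlap with them in the other 4.

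Receptors, carriers and mRNA-binding proteins outside the listed members gave no call. Igf2r, whose receptor takes IGF-II to lysosomes, differed by 0.12 (SE 0.13) with overlapping arrays. The insulin receptor gene Insr had 2 probe sets that disagreed in sign, at -0.16 (SE 0.11) and 0.18 (SE 0.13). Igfals, the acid-labile subunit that stabilises IGF complexes in serum, differed by 0.26 (SE 0.17), and Igf2bp3, which encodes a protein that binds Igf2 mRNA, by 0.27 (SE 0.14). The insulin gene Ins2, the neighbour of Igf2, lay under the filter on low values, at 6.91 and 6.49 in the heterozygous and 6.73 and 6.35 in the knockout mice.

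Growth hormone drives much of the Igf1 expression of the body, and its axis gave no call among 10 tested genes, 5 higher and 5 lower. Ghr, the growth hormone receptor, read 11.13 and 10.80 in the heterozygous mice and 10.82 and 11.10 in the knockout mice, a difference of -0.01 (SE 0.15). Socs2, a feedback inhibitor of that receptor, differed by 0.11 (SE 0.17) in its brighter probe set and -0.01 (SE 0.12) in the other. Socs3, a cytokine feedback inhibitor, differed by -0.35 (SE 0.12, limma adjusted p = 0.17) in the brighter of its 2 probe sets and by 0.06 (SE 0.15) in the other. Ptpn1, a phosphatase of the insulin and IGF receptors, differed by 0.21 (SE 0.13).

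Of the 27 tested genes of receptor adaptors and PI3K-AKT-mTOR signalling, 13 were higher and 14 lower, and none passed. Grb10, an imprinted adaptor that dampens signalling from the insulin and IGF-I receptors, read 9.11 and 9.03 in the heterozygous mice and 9.54 and 9.57 in the knockout mice. The arrays of each genotype were close together and the genotypes apart, with a difference of 0.49 (SE 0.11, limma adjusted p = 0.055). The adjusted p of Grb10 was under 0.05 in 7 of 14 other settings and ran from 0.017 to 0.22, while its difference stayed between 0.45 and 0.64. The adaptors Irs1 (0.20, SE 0.13), Irs2 (-0.13, SE 0.14) and Shc1 (0.28, SE 0.13) and the kinase Akt1 (0.25, SE 0.12) did not pass.

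Most of the genes with profiles nearest to Igf2 were muscle genes. Likeness was measured as the distance over the 4 arrays between log2 profiles with each gene's own mean removed, among all tested probe sets of other genes. The nearest was Actn2, which encodes the alpha-actinin of muscle Z-discs, at a distance of 0.084, with 10.02 and 10.26 in the heterozygous and 11.81 and 11.11 in the knockout mice. It was followed by Mybph, a myosin-binding protein (0.16), Hspb7, a small heat shock protein of heart and muscle (0.17), Myh1, a fast-fibre myosin heavy chain (0.23), and Scn2a, a sodium channel subunit (0.27). The Pappa2 probe sets lay at distances of 0.68, 0.47 and 0.77 from Igf2. Among the members themselves the closest profiles were those of Igfbp2 and Igfbp7 (0.19) and of Igfbp3 and Igfbp4 (0.19). With so few arrays, such distances describe these samples and no more.

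**Figure D4:**
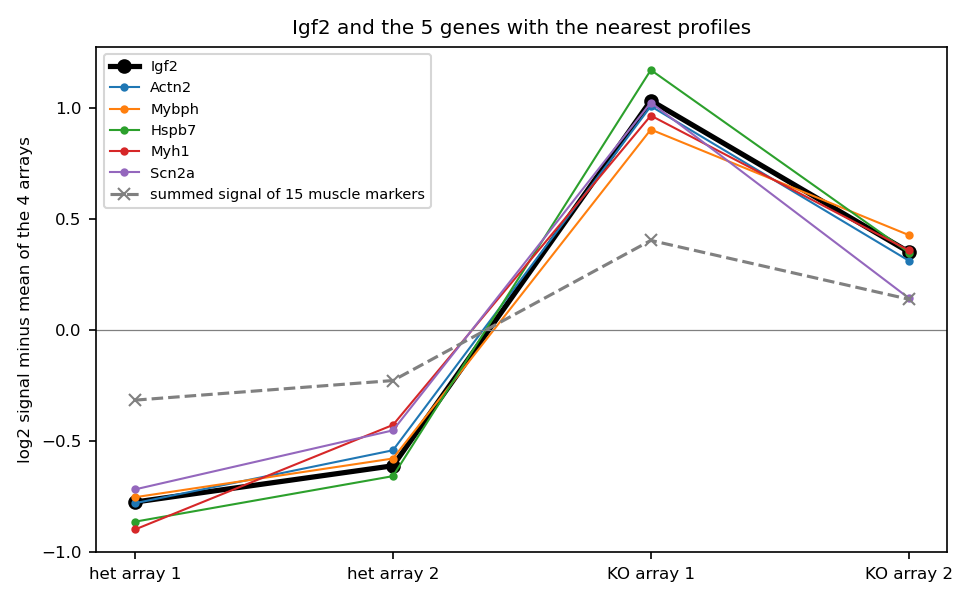
Log2 signal in each array minus the mean of the 4 arrays for Igf2 (black), the 5 genes with the nearest profiles (colours) and the log2 summed signal of 15 skeletal muscle markers (grey, dashed). Igf2 and its nearest genes are lowest in heterozygous array 1 and highest in knockout array 1, and the summed muscle signal follows the same order of arrays over a smaller range.

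Skeletal muscle fibre markers were higher in the arrays with higher Igf2. Of 15 markers, all tested, 14 were higher in knockout and in the same 14 both knockout arrays lay above the heterozygous range, as in 27.8% of those tested overall. Of these 4 passed by limma's adjusted p, beside 1.98% of all tested probe sets, and the median difference was 0.53. Their summed signal on the linear scale was 54693 and 58142 in the heterozygous mice and 89991 and 74922 in the knockout mice. Markers of muscle progenitors and endplates did not move one way. Of 10 such markers 7 were tested, 4 higher and 3 lower in knockout, with a median difference of 0.03. Of the 7, 2 passed, beside the same 1.98% of all tested probe sets. They were Chrna1 (1.03, SE 0.12), a muscle acetylcholine receptor subunit, and Myf6 (1.05, SE 0.13), a myogenic transcription factor. Chrng, the fetal acetylcholine receptor subunit, was lower in both knockout arrays (-0.36, SE 0.14) and did not pass. Myh8 was higher in both (0.37, SE 0.14) and did not pass either. Myog (-0.07), Pax7 (-0.06) and Myod1 (0.03) lay near 0. Both knockout arrays thus lay above the heterozygous range in 3 of the 7 and below it in 1, beside 27.8% and 22.1% of all tested probe sets. The summed signal was 1636 and 1763 in the heterozygous and 2323 and 2234 in the knockout mice, with Chrnd, Myf5 and Myh3 under the filter on low values. The part of the muscle signal in the Igf2 and Pappa2 differences was not tested.

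Among the other marker lists, medians ran from -0.18 to 0.60. Dermal fibroblast markers, 10 of 10 tested, had a median of -0.05 with 0 passing, and a summed signal of 41406 and 35154 in the heterozygous and 36314 and 38350 in the knockout mice. In that list heterozygous array 1 was the highest and heterozygous array 2 the lowest, as for Igfbp2 and Igfbp7. The same arrays were highest and lowest for the white adipocyte markers, with 21128 and 15112 in the heterozygous and 18034 and 20586 in the knockout mice. Dermal papilla markers, with 9 of 10 tested and Sox2 under the filter, had a median of -0.18 with 0 passing. In both knockout arrays 6 of the 9 lay below the heterozygous range, as 22.1% of all tested probe sets did, and 2, Alx4 and Notum, lay above it. Their summed signal was 3734 and 3986 in the heterozygous and 3529 and 3314 in the knockout mice, and its part in the lower Igfbp5 and Igfbp6 signals was not tested. Macrophage markers had a median of -0.14, endothelial markers 0.03, and pericyte and smooth muscle markers -0.01, the 1 that passed there being Des, also a muscle marker. The median was 0.08 for white adipocyte, 0.16 for keratinocyte and 0.60 for sebocyte markers, the last above the 0.53 of skeletal muscle. All 9 tested sebocyte markers were higher in knockout, and 2 of them passed, Awat1 and Elovl3, where the background share of calls was 1.98%. For 6 of the 9 the lower knockout array exceeded the higher heterozygous one, a pattern with a background share of 27.8%. The summed sebocyte signal was 33986 and 25692 in the heterozygous and 38184 and 38444 in the knockout mice, lowest in heterozygous array 2, and its part in the Igf2 difference was not tested.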

How the data were processed

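Affymetrix whole-transcript arrays measured total RNA of whole back skin, 1 array per mouse. Per the labels' protocols, TRIzol and then RNeasy columns were used to purify the RNA, and Ambion's WT kit to amplify it before labelling with biotin. Affymetrix Expression Console 1.1.1 and PLIER 2.0 are named, per the submitters' processing notes. The authors deposited 1 table of 35557 probe sets, taken here as log2 signal from its range (2.54 to 14.9); neither its scale nor any scaling of the arrays against each other is recorded (not given in the sources used here). A probe set averages probes along a transcript, which can hide a change in part of it.

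Quartiles differed between arrays by up to 0.34, so the arrays were quantile normalized. Probe sets paired with 1 symbol (21789; 1621 had several and 12147 none) were kept, symbols were updated by gene identifier (21698 matched, GRCm38.p6 table), and the 16341 with a mean above the 25th percentile (6.67) were tested with limma 3.58.1 in R 4.3.3 (eBayes with trend, 2 residual degrees of freedom, Benjamini-Hochberg over all of them, threshold 0.05). The SEs are limma's moderated ones. P-values rest on the spread between these mice, which limma draws toward a variance shared by tested probe sets of similar signal. With 2 arrays per genotype they therefore do not measure the spread of each gene alone. The fit was tested on simulated data. Members and lists were chosen with earlier results of these data known. Named are the members, 12 set genes of the IGF lists where measured, the 2 others of each list with the smallest p, and the 5 genes nearest to Igf2; single markers and Mir483 were chosen after their values were seen. Alternatives are listed in the closing section; testing probe sets of several genes was added after the data were seen. Promoter and miRNA sequences are RefSeq's (GRCm38.p6).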

Additional observations from a re-analysis of the deposited data

How the results depend on the processing

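The count of probe sets past the threshold, 323, was 913 after median centring, 544 with the values as deposited, 145 without a filter and 0 with probe sets of several genes also tested; with single arrays left out it ran from 77 to 986. The count at an unadjusted p under 0.05, 2933, ran from 1685 to 3720 with single arrays left out. The number of IGF list genes past the threshold, 0, was 2 after median centring, with the values as deposited, with the stricter filter (50th percentile), with a robust prior and when each gene had 1 probe set, and ran from 0 to 2 with single arrays left out. Their probe sets, 2, became 4 after median centring and with the values as deposited, 1 without a trend, and 0 without a filter and with probe sets of several genes also tested; with single arrays left out they ran from 0 to 4. With a replicate block (array numbers 1 and 2) the counts were 1235 probe sets, 2 IGF list genes and 4 of their probe sets. Nothing in the labels ties these numbers to litters, and the correlation of the 2 pairs' deviations was 0.17.

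The 3 members whose arrays stood clear of each other became 5 to 7 with single arrays left out, where fewer arrays make that easier. With the values as deposited the number stayed at 3, but with Igfbp4 (higher in knockout) in place of Igfbp6. After median centring Igfbp4 differed by 0.13, Igfbp5 by -0.30 and Igfbp6 by -0.15. With single arrays left out the differences ran from 1.04 to 1.72 for Igf2, -0.18 to 0.23 for Igf1, -0.18 to 0.16 for Igf1r, -0.12 to 0.28 for Igfbp2, -0.48 to -0.10 for Igfbp6 and -0.25 to 0.16 for Igfbp7. Some genes that did not pass changed sign. After median centring Socs2 (the dimmer probe set) was at 0.021, Ghr at 0.12, Pappa at 0.034 and Htra1 at 0.020, and with the values as deposited Ghr was at 0.087 and the dimmer Socs3 probe set at -0.025. With single arrays left out Socs2 ran from -0.11 to 0.33 (brighter) and -0.046 to 0.031 (dimmer), Socs3 (dimmer) from -0.037 to 0.16, Stc1 from -0.40 to 0.14, Ghr from -0.17 to 0.16, Htra1 from -0.27 to 0.028, Igf2r from -0.019 to 0.25 and Irs2 from -0.32 to 0.056. The offset of 16 on the linear scale changed no call or direction among the members and named genes. Where a setting changed a call, the cause was not tested. An array left out leaves its genotype with 1 array, whose spread is then taken from the other genotype.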

Other observations

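The microRNA gene Mir483 lies inside Igf2, on the same strand (chr7:142654924-142654996, minus strand, GRCm38.p6), and had a probe set of its own. Its signal went the other way from that of Igf2. It read 8.83 and 8.78 in the heterozygous mice and 8.16 and 8.41 in the knockout mice. Both knockout arrays lay lower than both heterozygous ones, which 22.1% of tested probe sets also did. The difference was -0.52 (SE 0.12), and it is given with no test because the gene was picked after its values were seen. The array labels total RNA, and this signal does not measure the mature microRNAs. Their sequences are shown, with the seed (bases 2 to 8) in capitals, because they differ in seed and so belong to separate target families.
mmu-miR-483-3p: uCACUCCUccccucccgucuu
mmu-miR-483-5p: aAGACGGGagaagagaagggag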
